A study of Mus musculus with 12 samples.

Results

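The growth hormone, STAT5 and IGF axis of the liver was examined in 10 genes of the 56748 in the deposited count table: Ghr, Stat5a, Stat5b, Socs2, Cish, Igf1, Igfals, Igfbp2, Bcl6 and Onecut1. They were chosen by name for their place in this pathway, with earlier results of these data known. The counts of each gene were compared between 3 genotypes. RNA-seq was done on 12 mouse livers, 4 of each genotype, all taken after a fast of 24 h. The controls (WT) were labelled as floxed for Cpt1a, Cpt1b and Cpt2 without a KO, whereas the study describes mice floxed for Atf3 and Cpt2 as the controls of its qPCR. The single KO livers (SKO) lacked Cpt2, which encodes the mitochondrial carnitine palmitoyltransferase needed to oxidize long-chain fatty acids. The double KO livers (DKO) lacked Cpt2 and the stress-responsive transcription factor gene Atf3. Both KOs were made with floxed alleles and Cre under the albumin promoter, which is active in hepatocytes. The labels give no age or sex of the single mice, and the study describes the mice used for RNA-seq as male.

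Growth hormone from the pituitary binds its receptor, GHR, on hepatocytes, and the bound kinase JAK2 phosphorylates STAT5A and STAT5B, which enter the nucleus and switch on target genes. Those targets include Igf1, the main source of circulating insulin-like growth factor, Igfals, whose product, the acid-labile subunit, holds IGF1 in a long-lived serum complex, and Socs2 and Cish, whose products damp the signal. STAT5 represses Bcl6, itself a repressor that competes for STAT5 sites, and Onecut1 (HNF6) encodes a liver transcription factor under growth hormone control. In fasting, the liver becomes resistant to growth hormone and makes less IGF1. IGFBP2 is a binding protein for IGFs that the liver secretes. In male mice growth hormone comes in pulses and in females more evenly, which sets the sex-biased expression of many liver genes through STAT5.

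STAT5 dimers bind a palindrome, TTCNNNGAA, and the promoter windows of the 10 genes were searched for it. RefSeq windows of GRCm38.p6, from 250 bases before to 50 after a start site (300 bases), were at hand for 9 of the genes, as 16 windows. Socs2 had none. The palindrome reads the same on both strands and was in 5 of the 16 windows, which belonged to Igfals, Cish and Bcl6, and in 8.30% of all 32851 mouse windows. The window of Cish (chr9:107296409-107296708, plus strand) held a pair of matches just past the start site, and 1 of the Bcl6 windows (chr16:23981234-23981533, minus strand) held 3. They are shown, with 1 Igfals window (chr17:24877981-24878280, plus strand), because they carry the letters by which STAT5 recognizes targets of both directions, with the matches in capitals.
Cish: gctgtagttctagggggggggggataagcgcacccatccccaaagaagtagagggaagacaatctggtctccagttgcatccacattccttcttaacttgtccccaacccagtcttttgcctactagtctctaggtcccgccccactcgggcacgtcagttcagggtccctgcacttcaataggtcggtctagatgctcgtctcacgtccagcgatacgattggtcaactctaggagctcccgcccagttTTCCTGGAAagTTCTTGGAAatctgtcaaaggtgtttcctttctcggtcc
Bcl6: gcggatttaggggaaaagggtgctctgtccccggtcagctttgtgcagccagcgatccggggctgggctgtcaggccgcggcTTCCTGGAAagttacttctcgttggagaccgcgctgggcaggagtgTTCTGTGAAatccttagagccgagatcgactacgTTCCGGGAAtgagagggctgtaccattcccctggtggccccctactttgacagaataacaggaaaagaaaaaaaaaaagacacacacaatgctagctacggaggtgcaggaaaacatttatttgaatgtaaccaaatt
Igfals: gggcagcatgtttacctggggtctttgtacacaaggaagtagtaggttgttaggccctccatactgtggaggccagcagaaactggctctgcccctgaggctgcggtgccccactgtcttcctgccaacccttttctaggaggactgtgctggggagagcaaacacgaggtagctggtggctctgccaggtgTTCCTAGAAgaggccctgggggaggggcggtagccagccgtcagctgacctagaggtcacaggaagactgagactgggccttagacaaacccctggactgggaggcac

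Other motifs were searched on both strands in the same windows. ATTGAT, the core of sites for ONECUT factors, and TGACGTCA, the cyclic AMP response element to which ATF3 and its partners bind, matched 0 of the 16 windows and 7.54% and 1.79% of all windows. TGANTCA, a looser form of the AP-1 site, which has C or G in the middle, matched 7.81% of all windows. It matched 1 window each of Ghr and Igf1, both as TGAATCA, and 1 window of Igfbp2 as TGAGTCA. Only the match in Igfbp2 has the middle base of the AP-1 site. A match of letters is a description and not a bound site, and no match covers only these windows.

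A pair of livers stood apart from their labels' groups. SKO replicate 3 and DKO replicate 4 had 18063 and 20855 counts of Xist, the RNA made from the inactive X of female cells, and 2 and 0 counts over 4 Y-linked genes, whereas the other 10 livers had at most 19 counts of Xist and 2741 to 4294 Y-linked counts. Results of the 10 genes are given with and without them where they enter, and those of the gene lists of the pathway as counts without them. Total counts were 14710304 to 20030055 per liver, and levels are CPM, counts scaled to the library size with TMM normalization. The targeted Cpt2 was at 199, 250, 238 and 250 CPM in WT replicates 1 to 4, at 112, 158, 109 and 127 CPM in SKO and at 119, 124, 125 and 99.9 CPM in DKO, so every KO liver was below every WT liver. Atf3 was at 1.77, 1.20, 1.11 and 2.14 CPM in WT, at 24.8, 54.0, 29.4 and 14.5 CPM in SKO and at 7.91, 10.8, 13.5 and 0.266 CPM in DKO. These counts cover the whole gene and do not show the deleted exon.

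All 10 genes passed the filter for low counts in each comparison. Against WT, 5 of the 10 passed the threshold in SKO, an adjusted p under 0.05 in edgeR's quasi-likelihood test: Ghr, Igf1, Igfals and Onecut1 were lower and Igfbp2 was higher. Over all 14261 genes tested, 32.1% passed in that comparison, 15.4% of the genes tested in the lower direction and 16.7% in the higher. For Ghr, Igf1 and Igfals the SKO and WT livers did not overlap, all lower, beside 33.2% of all genes without overlap and 16.1% in that direction. With library totals in place of TMM, Ghr and Igfals were lower without overlap while Igf1 overlapped, and Stat5a and Igfbp2 were higher without overlap (4 of 10, beside 36.9% of all genes). In DKO against WT, 1 of the 10 genes passed, Onecut1, which was lower and without overlap, beside 10.5% of 14448 genes called, 4.39% called lower and 9.05% lower without overlap (16.8% without overlap either way). With library totals 0 of the 10 were without overlap in DKO against WT, beside 18.8% of all genes. Without DKO replicate 4, 3 of the 10 passed in DKO against WT, Ghr, Igfals and Onecut1, all lower, beside 35.9% of all genes called in either direction. In DKO against SKO 0 of the 10 passed beside 0.0209% of 14363 genes, or 3 genes, with 1 of the 10 at an unadjusted p under 0.05 beside 6.49% of all genes. By DESeq2 too, 0 of the 10 passed in DKO against SKO. The median log2 fold change of the 10 genes was -0.15, -0.24 and 0.024 in the 3 comparisons, beside 0.031, 0.030 and 0.0086 over all genes. The comparisons share their livers in pairs, so their values are set side by side here and not counted as repeats of each other.

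**Figure D1:**
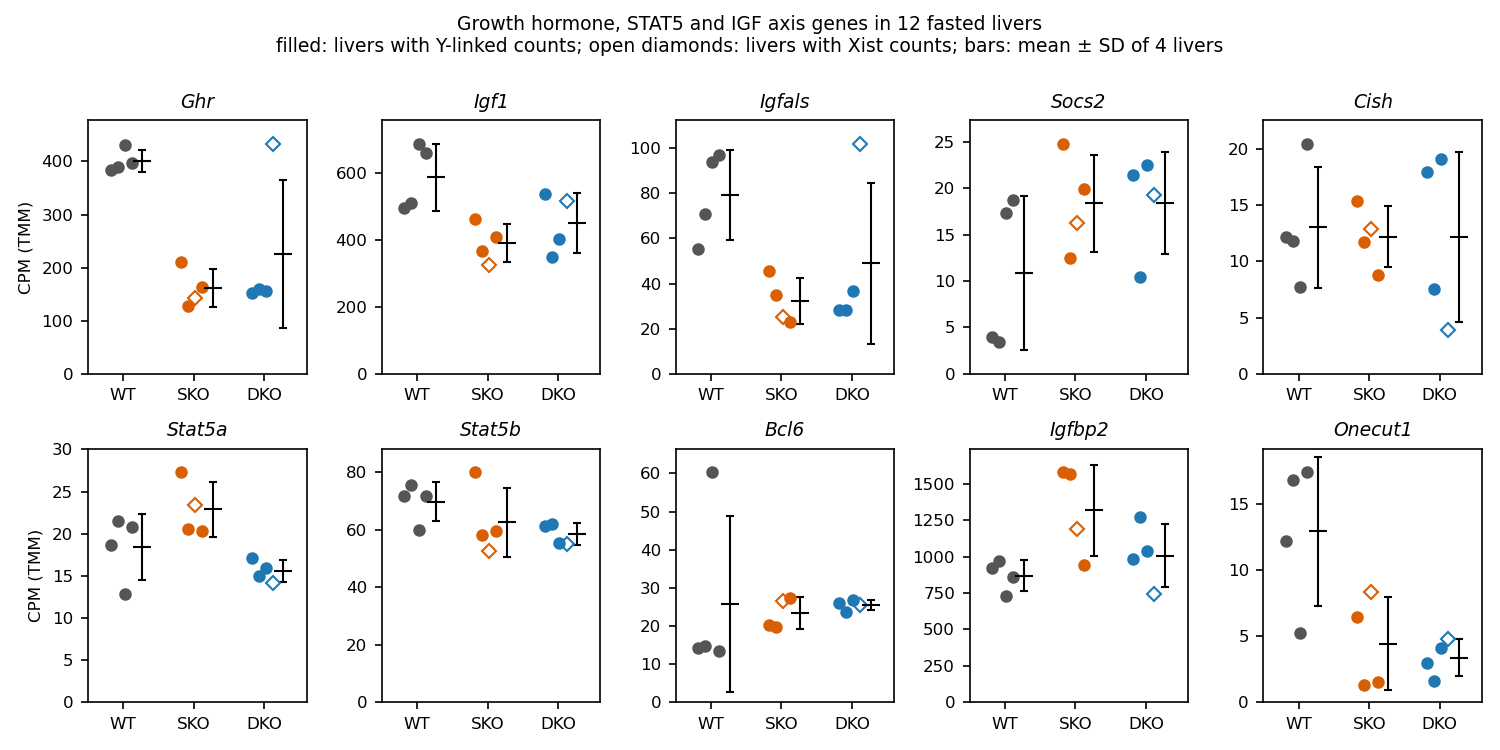
Level of each of the 10 genes (vertical axes, CPM from 0, TMM normalized) in the 4 livers of WT, SKO and DKO (horizontal axes), with filled circles for livers with Y-linked counts, open diamonds for SKO replicate 3 and DKO replicate 4, and bars for the mean ± SD of 4 livers. Ghr was at 383 to 430 CPM in WT and at 128 to 210 CPM in SKO, and 3 DKO livers were at 152 to 160 CPM while DKO replicate 4 was at 434 CPM.

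The receptor was the most evenly expressed of the genes in controls and fell in SKO livers. Ghr (chromosome 15, 3347242 to 3612974 on the minus strand in the deposited annotation) was at 383, 390, 430 and 397 CPM in WT replicates 1 to 4, a coefficient of variation of 5.19%. It was at 210, 128, 142 and 164 CPM in SKO and at 152, 160, 157 and 434 CPM in DKO. All SKO livers and 3 of 4 DKO livers lay below all WT livers, and DKO replicate 4 lay above them. The mean in SKO was 161 ± 35.9 CPM (SD, n = 4) against 400.1 ± 20.8 CPM in WT, 2.49-fold lower, with a log2 fold change of -1.32 (SE 0.16, adjusted p = 0.000101, edgeR quasi-likelihood test). Without SKO replicate 3 it was -1.26 (SE 0.17, adjusted p = 0.000279). In DKO the log2 fold change against WT was -0.81 (SE 0.34, adjusted p = 0.144) over all 4 livers and -1.35 (SE 0.10, adjusted p = 4.52e-06) without replicate 4.

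The STAT5 genes lie next to each other on chromosome 11 and neither passed the threshold in any comparison. Stat5b (100671557 to 100741550, minus strand), the form that predominates in liver, was at 71.6, 75.6, 59.9 and 71.8 CPM in WT, at 80.0, 58.3, 52.4 and 59.4 CPM in SKO and at 61.4, 61.9, 55.4 and 55.2 CPM in DKO. The ranges overlapped, with SKO replicate 1 highest of all 12 livers. Its log2 fold change was -0.16 (SE 0.15, adjusted p = 0.447) in SKO and -0.24 (SE 0.11, adjusted p = 0.178) in DKO against WT. Without the livers with Xist counts these were -0.081 (SE 0.15, adjusted p = 0.719) and -0.22 (SE 0.11, adjusted p = 0.130).

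Stat5a (100750177 to 100775995, plus strand) was at 18.7, 21.5, 12.8 and 20.8 CPM in WT, at 27.3, 20.6, 23.4 and 20.3 CPM in SKO and at 17.2, 15.01, 16.0 and 14.2 CPM in DKO. The SKO livers were all above the DKO livers, and both groups overlapped WT. With library totals the SKO livers (20.7 to 28.6 CPM) were all above the WT livers (11.5 to 19.4 CPM). The log2 difference of DKO from SKO was -0.53 (SE 0.15) with an unadjusted p of 0.00463, which did not pass after adjustment over all genes (adjusted p = 0.469). Groups of 4 without overlap occurred in 3.94% of the genes of this comparison, 1.86% in the lower direction. Without both Xist-expressing livers the log2 difference was -0.49 (SE 0.18, adjusted p = 0.592).

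Levels of different genes were set beside each other per kilobase of the deposited gene length, which need not be that of the transcripts in liver. On this scale Stat5b made up 81.7 to 85.8% of the sum of both STAT5 genes in WT livers, 74.3 to 79.0% in SKO and 81.7 to 84.2% in DKO. The SKO livers lay below all livers of the other groups in this share, which was computed after the values of the single genes were seen and was not tested. Stat5a overlaps Stat3 on the opposite strand, and over the 12 livers the highest count of Stat3 was 2540 and that of Stat5a 450, in different livers. The sources used here do not say whether reads were counted by strand, so reads from the shared stretch cannot be told apart.

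The feedback genes did not pass the threshold in any comparison. Socs2 was at 3.95, 3.42, 17.3 and 18.7 CPM in WT, at 24.8, 12.4, 16.3 and 19.9 CPM in SKO and at 21.4, 10.4, 22.5 and 19.3 CPM in DKO. The WT livers fell apart into a low pair, replicates 1 and 2, and a pair within the range of the KO livers, and no KO liver was as low as the low pair. The log2 fold change was 0.76 (SE 0.48, adjusted p = 0.266) in SKO and 0.78 (SE 0.54, adjusted p = 0.361) in DKO, intervals (95%) of -0.19 to 1.71 and -0.27 to 1.83.

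Cish, which encodes the cytokine-inducible SH2 protein, was at 12.1, 11.8, 7.67 and 20.4 CPM in WT, at 15.4, 11.7, 12.8 and 8.81 CPM in SKO and at 17.9, 7.54, 19.1 and 3.94 CPM in DKO. The groups overlapped throughout, and DKO replicate 4 was the lowest liver. The log2 fold changes were -0.10 (SE 0.27, adjusted p = 0.816) in SKO and -0.085 (SE 0.47, adjusted p = 0.925) in DKO, and the latter was 0.20 without DKO replicate 4. The lowest count behind these values was 54 for Socs2 and 74 for Cish.

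The secreted products of growth hormone action, Igf1 and Igfals, were lower in SKO livers, and their order among livers differed. Igf1 (chromosome 10, 87694127 to 87772904, plus strand) was at 495, 511, 690 and 660 CPM in WT, at 462, 367, 327 and 411 CPM in SKO and at 537, 351, 404 and 519 CPM in DKO. All SKO livers lay below all WT livers, and DKO replicates 1 and 4 lay within the WT range. This separation depended on the scaling, since with library totals SKO replicate 1 was at 484 CPM and WT replicate 2 at 461 CPM, and DKO replicate 3 (468 CPM) was within the WT range too. The mean in SKO was 392 ± 58.0 CPM against 589 ± 99.98 CPM in WT (SD, n = 4), 1.51-fold lower, with a log2 fold change of -0.59 (SE 0.16, adjusted p = 0.0152). Without SKO replicate 3 it was -0.51 (SE 0.17, adjusted p = 0.0356). In DKO it was -0.36 (SE 0.19, adjusted p = 0.236), and -0.44 (SE 0.18, adjusted p = 0.0726) without replicate 4.

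Igfals (chromosome 17, 25084971 to 25100984, plus strand) was at 55.3, 70.9, 93.8 and 97.0 CPM in WT, at 45.6, 35.0, 25.4 and 23.0 CPM in SKO and at 28.3, 28.4, 37.0 and 102 CPM in DKO. As for Ghr, the SKO livers and DKO replicates 1 to 3 were below all WT livers and DKO replicate 4 was above them. The SKO mean of 32.2 ± 10.3 CPM was 2.46-fold lower than the WT mean of 79.3 ± 19.7 CPM (SD, n = 4), with a log2 fold change of -1.30 (SE 0.24, adjusted p = 0.00145) and of -1.20 (SE 0.25, adjusted p = 0.00354) without replicate 3. In DKO the log2 fold change was -0.68 (SE 0.41, adjusted p = 0.309) over 4 livers and -1.34 (SE 0.19, adjusted p = 0.000357) over the 3 with Y-linked counts.

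Igfbp2 was the gene that rose. It was at 921, 972, 726 and 860 CPM in WT, at 1579, 1563, 1185 and 939 CPM in SKO and at 980, 1268, 1037 and 741 CPM in DKO. In SKO, 3 of 4 livers were above all WT livers and replicate 4 was within their range, whereas with library totals replicate 4 (981 CPM) was above them too (at most 904 CPM). The log2 fold change in SKO was 0.60 (SE 0.18, adjusted p = 0.0287), a 1.51-fold rise, and 0.65 (SE 0.20, adjusted p = 0.0263) without replicate 3. The call was lost in 5 of the 8 fits that left out a single liver, with adjusted p-values of up to 0.0894. In DKO it was 0.22 (SE 0.18, adjusted p = 0.453), and 0.33 (SE 0.13, adjusted p = 0.0748) without replicate 4.

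The transcription factor genes differed from each other. Onecut1 (chromosome 9, 74769203 to 74799063, plus strand) was at 12.2, 16.8, 5.27 and 17.4 CPM in WT, at 6.49, 1.33, 8.31 and 1.57 CPM in SKO and at 2.99, 1.59, 4.12 and 4.79 CPM in DKO. The DKO livers were all below the WT livers, while SKO replicates 1 and 3 lay above WT replicate 3. With library totals DKO replicate 3 was at 4.77 CPM, above WT replicate 3 at 4.72 CPM, so the groups then overlapped. The log2 fold change was -1.91 (SE 0.42, adjusted p = 0.0252) in DKO, 3.77-fold lower, and -1.55 (SE 0.55, adjusted p = 0.0477) in SKO. Without the livers with Xist counts these were -2.13 (SE 0.42, adjusted p = 0.00241) and -2.07 (SE 0.55, adjusted p = 0.0139). The call in SKO was lost by DESeq2 (adjusted p = 0.0890), and both calls were lost in most fits that left out a single liver, with adjusted p-values of up to 0.110 in SKO and 0.0769 in DKO. The lowest libraries held 26 counts of this gene.

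Bcl6 was at 14.2, 14.9, 60.4 and 13.5 CPM in WT, at 20.2, 19.6, 26.6 and 27.3 CPM in SKO and at 25.9, 23.6, 26.9 and 25.6 CPM in DKO. Each of the 8 KO livers was above 3 of the WT livers and below WT replicate 3, and the DKO livers were the least spread of the groups for this gene (coefficient of variation of 5.41%). Over all livers the log2 fold change was -0.13 (SE 0.43, adjusted p = 0.847) in SKO and 0.0072 (SE 0.46, adjusted p = 0.994) in DKO. Leaving out WT replicate 3 gave 0.71 (adjusted p = 0.0109) in SKO and 0.85 (adjusted p = 0.0142) in DKO, so that this gene passed the threshold when that 1 control liver was left out and not over all livers. The same control liver held the lowest WT values of Cish, Stat5a, Stat5b, Igfbp2 and Onecut1 and the highest of Ghr, Igf1 and Bcl6.

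**Figure D2:**
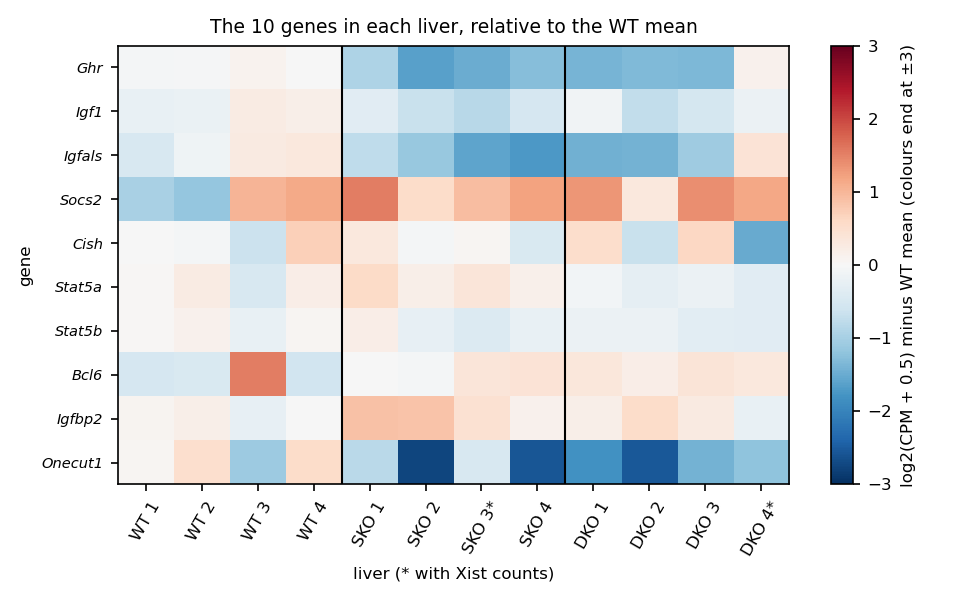
Heat map of the 10 genes (rows) in the 12 livers (columns), coloured by log2(CPM + 0.5) minus the mean of the 4 WT livers, with colours ending at 3 in either direction and asterisks on the livers with Xist counts. DKO replicate 4 has WT-like colours for Ghr and Igfals and a reduced Onecut1 (4.79 CPM), and WT replicate 3 stands out by its high Bcl6 (60.4 CPM).

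The difference between the KO groups in Ghr and Igfals rested on DKO replicate 4. Its Ghr was 2.78-fold and its Igfals 3.27-fold the mean of the other DKO livers, and 1.08-fold and 1.29-fold the WT mean. Its Cpt2 was the lowest of the 12 livers and its Onecut1 was below all WT livers. Over all genes, the chi-square per degree of freedom between libraries, smaller for more alike ones, was 83.1 to 126 between this liver and WT livers. It was 194 to 231 between this liver and the other DKO livers, which were at 27.7 to 33.3 from each other. Why this liver was nearer to WT was not tested. SKO replicate 3, the other liver with Xist counts, had Ghr at 142 CPM and Igfals at 25.4 CPM, as in the other SKO livers. Of this pair, only DKO replicate 4 had Ghr and Igfals above the rest of its group. The Igf1 of SKO replicate 3, at 327 CPM, was the lowest of the 12 livers.

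Between DKO and SKO, the comparison that asks what loss of Atf3 adds, the log2 difference was 0.52 for Ghr (interval -0.18 to 1.23), 0.24 for Igf1 (-0.16 to 0.63) and 0.64 for Igfals (-0.20 to 1.48) over 8 livers. Without both livers with Xist counts it was -0.091 (SE 0.19), 0.072 (SE 0.21) and -0.13 (SE 0.24). For Igfbp2 it was -0.37 (interval -0.83 to 0.081) and for Onecut1 -0.36 (interval -1.51 to 0.80) over 8 livers. Without both livers with Xist counts these were -0.31 (SE 0.23) and -0.067 (SE 0.57). None of these passed the threshold.

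**Figure D3:**
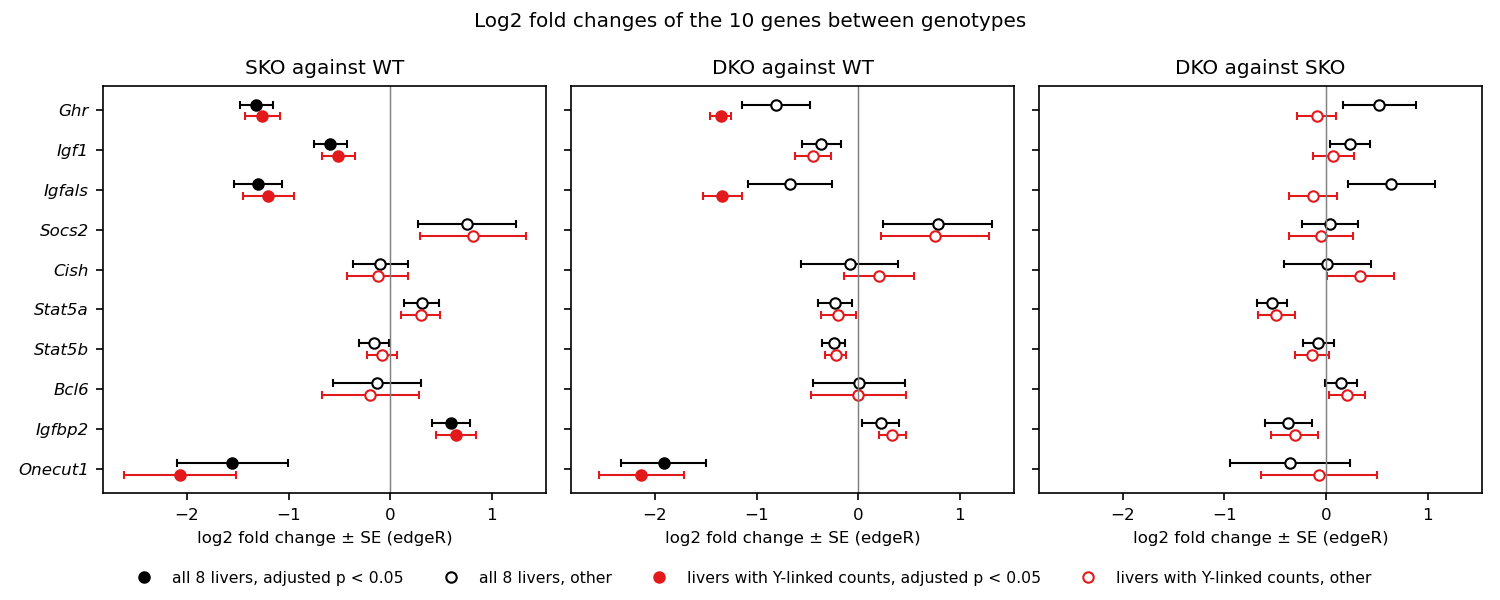
Log2 fold changes (horizontal axis) with their standard errors for the 10 genes (vertical axis) in SKO against WT, DKO against WT and DKO against SKO, over all 8 livers of a comparison (black) and over livers with Y-linked counts (red), filled where the adjusted p was under 0.05. In DKO against WT, Ghr and Igfals shift from -0.81 and -0.68 to -1.35 and -1.34 when replicate 4 is left out, and in DKO against SKO they shift from 0.52 and 0.64 to -0.091 and -0.13.

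Set side by side as CPM per kilobase of the gene length in the table, the WT levels spanned 414-fold. Igfbp2 was highest at 471 CPM per kilobase, followed by Igf1 at 59.5, Ghr at 44.2, Igfals at 25.0 and Stat5b at 12.6. The ranges of these 5 genes did not overlap from one neighbour to the next. Bcl6, Onecut1, Stat5a, Cish and Socs2 followed at 3.84 to 1.14 CPM per kilobase, and each of them overlapped the next in order. The place of Bcl6 rested on WT replicate 3, at 9.01 CPM per kilobase against 2.02 to 2.22 in the others. Without that liver its mean was 2.12, below Onecut1 (3.77), Stat5a (2.85) and Cish (2.30). In SKO, Stat5b at 11.3 CPM per kilobase took the place above Igfals at 10.2, with overlapping ranges, and Onecut1 was last at 1.08. In DKO the last place was Onecut1 as well, at 0.820 CPM per kilobase.

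The other IGF binding proteins and IGF genes were examined as a list of 14, of which 8 had counts enough for the test, and 4 of these passed in SKO against WT (2 higher, 2 lower) and 2 in DKO (1 higher, 1 lower), beside 32.1% and 10.5% of all genes. Igfbp1, which encodes a binding protein that liver secretes in fasting and low insulin, was at 146, 147, 188 and 112 CPM in WT, at 477, 1489, 913 and 178 CPM in SKO and at 715, 1309, 643 and 203 CPM in DKO. All DKO livers and 3 of 4 SKO livers were above all WT livers (all 4 SKO livers with library totals), and the KO livers varied widely. The log2 fold change was 2.36 (SE 0.49, adjusted p = 0.00348) in SKO and 2.28 (SE 0.45, adjusted p = 0.0198) in DKO.

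Igfbp4, an inhibitory binding protein abundant in liver, was at 2142, 2274, 2351 and 2378 CPM in WT, at 1109, 1056, 1167 and 888 CPM in SKO and at 1015, 961, 1036 and 1850.0 CPM in DKO. All KO livers were below all WT livers, and DKO replicate 4 was again the nearest to them. Its log2 fold change was -1.12 (SE 0.14, adjusted p = 0.000108) in SKO and -0.90 (SE 0.23, adjusted p = 0.0399) in DKO. Igfbp3, whose product carries most IGF1 in serum with the acid-labile subunit, rose in SKO by a log2 fold change of 0.71 (adjusted p = 0.0149), and Igfbp5 fell by 1.53 on the log2 scale (adjusted p = 0.0133). Neither passed in DKO, at 0.42 (adjusted p = 0.218) and -0.82 (adjusted p = 0.373). Htra1, which encodes a protease of binding proteins, was at 1.05 in SKO (adjusted p = 0.0934) and 1.09 in DKO (adjusted p = 0.149).

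Per kilobase, Igfbp2 and Igfbp4 made up most of the summed binding protein RNA (Igfbp1 to Igfbp7) in WT livers, 35.9 to 44.1% and 42.2 to 48.6%, and Igfbp1 6.53 to 11.2%. In SKO, Igfbp2 made up 39.9 to 57.5%, Igfbp4 11.3 to 22.6% and Igfbp1 13.1 to 46.0%. In DKO these shares were 37.8 to 43.7%, 12.0 to 40.4% and 12.8 to 47.3%. The share of Igfbp4 did not overlap between WT and the other groups. These shares were computed after the values were seen and were not tested.

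**Figure D4:**
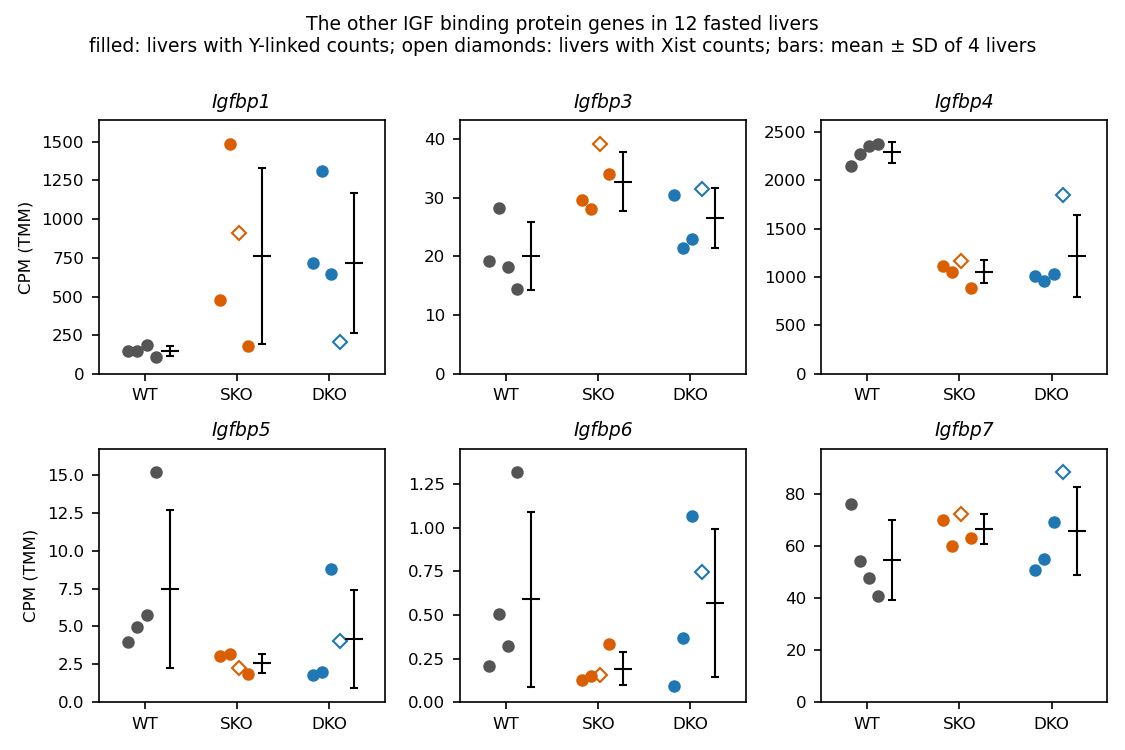
Levels of the 6 other IGF binding protein genes (vertical axes, CPM from 0, TMM normalized) in the livers of WT, SKO and DKO (horizontal axes), with filled circles for livers with Y-linked counts, open diamonds for livers with Xist counts and bars for the mean ± SD of 4 livers. Igfbp4 was at 2142 to 2378 CPM in WT and at 888 to 1850.0 CPM in the KO livers, and Igfbp1 was at 112 to 188 CPM in WT and at 178 to 1489 CPM in the KO livers.

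Of 18 other genes of growth hormone signaling and its feedback, 17 were tested, and 4 passed in SKO against WT (1 higher, 3 lower), beside 32.1% of all genes, and 0 in DKO, beside 10.5%, where 3 had an unadjusted p under 0.05. Stat3 fell by 0.47 (adjusted p = 0.0160) and Irs1, which encodes an insulin receptor substrate, by 1.00 (adjusted p = 0.0339) on the log2 scale in SKO, and Ptpn11, which encodes the phosphatase SHP2, rose by 0.47 (adjusted p = 0.00744). Sh2b1, an adaptor of JAK2, was at 0.31 (adjusted p = 0.0706). In DKO these were at -0.37 (Stat3), -0.55 (Irs1), 0.26 (Ptpn11) and 0.24 (Sh2b1), with adjusted p-values of 0.0918 to 0.448. Without DKO replicate 4, 7 of the 17 passed in DKO (2 higher, 5 lower), beside 35.9% of all genes in that fit.

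Among 16 transcription factors that act with STAT5 or respond to growth hormone, 4 passed in SKO against WT (1 higher, 3 lower) and 2 in DKO (both lower), beside 32.1% and 10.5% of all genes, so neither count was far from the share over all genes. Tox, a female-biased factor gene, rose by a log2 fold change of 1.37 (adjusted p = 0.00122) in SKO, where SKO replicate 3 held 44.3 CPM and the others 20.6 to 24.8 CPM against 8.61 to 12.6 CPM in WT. Onecut2, the paralog of Onecut1, fell by 0.76 (adjusted p = 0.00571), Rxra by 0.62 (adjusted p = 0.00677) and Foxa2, a pioneer factor of liver, by 0.73 (adjusted p = 0.0289) on the log2 scale. The call of Foxa2 was lost without SKO replicate 3 (-0.58, adjusted p = 0.0591). In DKO, Rxra fell by 0.67 (adjusted p = 0.0467) and Foxa2 by 0.69 (adjusted p = 0.0226), while Onecut2 was at -0.41 (adjusted p = 0.224) and Tox at 0.51 (adjusted p = 0.160). Without DKO replicate 4, Onecut2 passed (-0.68, adjusted p = 0.00114). Nr3c1, the glucocorticoid receptor gene, was at -0.44 (adjusted p = 0.0778) in SKO and -0.38 (adjusted p = 0.0993) in DKO.

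The sex-biased targets of growth hormone were examined as lists of 18 male-biased and 19 female-biased genes. Of the 18 male-biased genes, 11 fell and 0 rose in SKO against WT, and 9 fell and 0 rose in DKO, beside 15.4% and 4.39% of all genes that fell. Their median log2 fold change was -1.32 in SKO and -1.02 in DKO, beside 0.031 and 0.030 over all genes. Slco1a1, an organic anion transporter gene, was at 261, 245, 196 and 234 CPM in WT, at 45.0, 12.9, 31.3 and 65.2 CPM in SKO and at 76.8, 61.7, 37.6 and 47.6 CPM in DKO, all KO livers below all WT livers. Its log2 fold change was -2.60 (SE 0.37, adjusted p = 0.000308) in SKO and -2.05 (SE 0.22, adjusted p = 0.00337) in DKO.

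The other male-biased genes named by the rule fell in both KO groups. On the log2 scale Serpina3k was at -1.41 in SKO (adjusted p = 0.000150) and -0.90 in DKO (adjusted p = 0.0233), and Susd4 at -2.68 (adjusted p = 0.000173) and -2.83 (adjusted p = 0.0121). C8a, which encodes a subunit of the complement membrane attack complex, was at -1.32 (adjusted p = 0.00395) and -0.67 (adjusted p = 0.0288). Selenbp2 was at -3.43 (adjusted p = 0.00762) and -2.24 (adjusted p = 0.0473). Several of the listed families, such as the Cyp4a12, Cyp2c, Cyp2a, Mup and Serpina3 genes, have near-identical copies between which the counting may split reads.

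The male-biased list did not move as a block. Without the livers with Xist counts, 12 of the 18 were lower and 2 higher in SKO, and 12 lower and 1 higher in DKO, beside 32.5% and 35.9% of all genes called in either direction. The higher ones, named after their values were seen, were Cyp4a12a at 0.89 (adjusted p = 0.00337) and Cyp4a12b at 0.55 (adjusted p = 0.0423) in SKO and Cyp4a12a at 0.56 (adjusted p = 0.00995) in DKO. These encode fatty acid hydroxylases. Cyp4a12a was at 136 to 191 CPM in WT, at 215 to 347 CPM in the 3 SKO livers with Y-linked counts and at 39.0 CPM in SKO replicate 3.

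SKO replicate 3 and DKO replicate 4 were below all WT livers in 18 of the 18 male-biased genes each, while the other KO livers were so in 11 to 16 (9 to 16 with library totals). They were above all WT livers in 15 and 17 of the 19 female-biased genes, and the other KO livers in 0 to 4. Cyp2a4 was at 139 CPM in SKO replicate 3 and 426 CPM in DKO replicate 4, at 27.5 CPM in SKO replicate 2 and at 0.184 to 3.05 CPM in the other 9 livers. Its level in SKO replicate 2 is thus above the controls in a liver with Y-linked counts.

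Of the 19 female-biased genes, 10 were tested in SKO against WT, with 3 higher and 3 lower, and 9 in DKO, with 0 higher and 1 lower, beside 32.1% and 10.5% of all genes called. The higher ones in SKO included Cyp2a4 at 5.20 (adjusted p = 0.0114) and Fmo2 at 1.13 (adjusted p = 0.0210), and without SKO replicate 3 these were 3.20 (adjusted p = 0.0279) and 0.67 (adjusted p = 0.0337). The lower ones were Ttc39c at -1.94 (adjusted p = 1.24e-06), Lifr, the receptor of leukemia inhibitory factor, at -0.74 (adjusted p = 0.00350) and Cyp39a1, an oxysterol hydroxylase gene, at -0.80 (adjusted p = 0.00922). In DKO, Ttc39c was at -2.08 (adjusted p = 0.00148). Without the livers with Xist counts, 2 were higher and 5 lower in SKO, and 0 higher and 4 lower in DKO, so that in these livers members of both lists were lower than in WT.

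**Figure D5:**
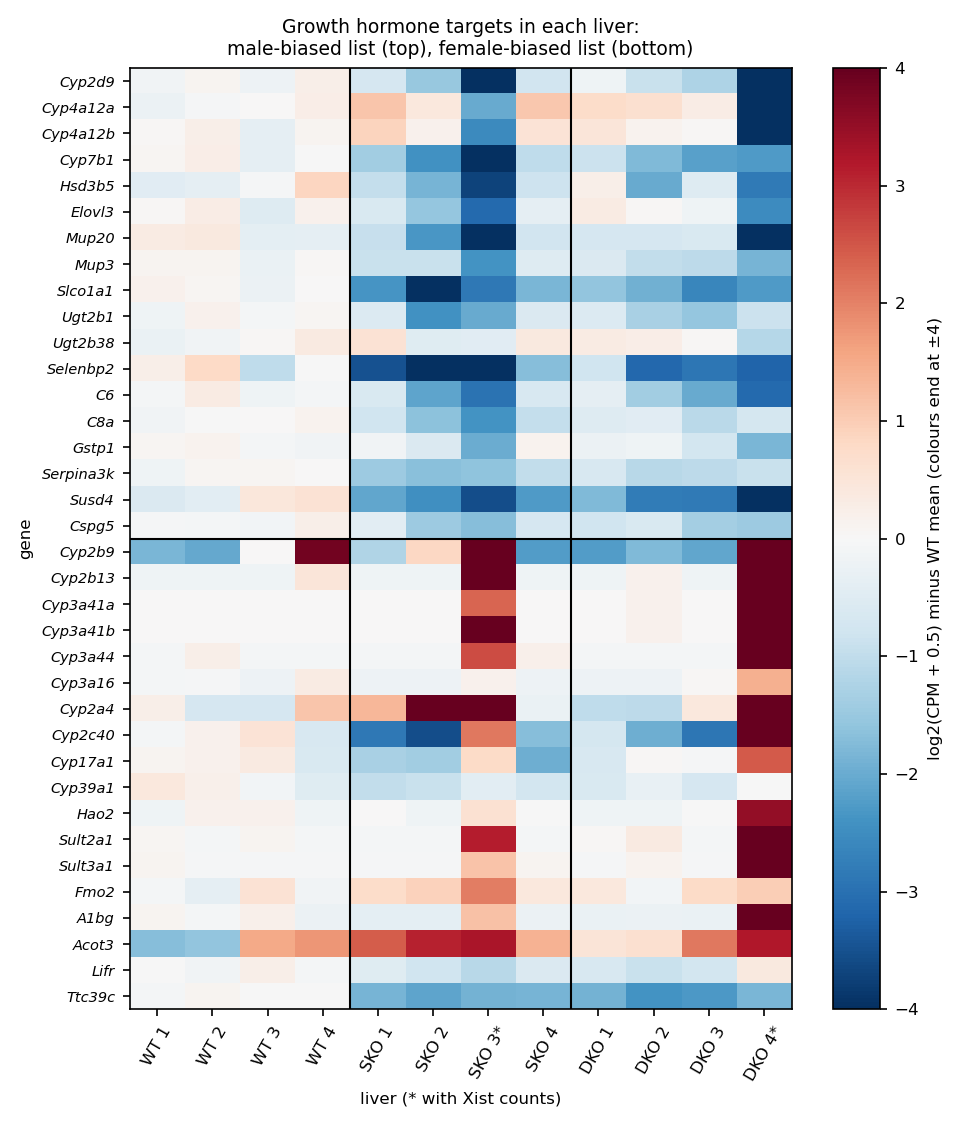
Heat map of the 18 male-biased (top) and 18 of the 19 female-biased (bottom) growth hormone targets (rows) in the 12 livers (columns), coloured by log2(CPM + 0.5) minus the mean of the 4 WT livers, with colours ending at 4 in either direction and asterisks on livers with Xist counts. SKO replicate 3 and DKO replicate 4 were below all WT livers in 18 of 18 male-biased genes and above them in 15 and 17 of all 19 female-biased genes, and Slco1a1 and Susd4 were below all WT livers in the other KO livers too.

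Fasting mediators linked to growth hormone resistance included genes with fold changes larger than those of any of the 10 genes. Of 9 genes, 2 rose and 2 fell in SKO, and 2 rose and 2 fell in DKO, beside 32.1% and 10.5% of all genes called. Fgf21, the fasting hormone of liver that opposes growth hormone action, was at 2.50, 3.35, 5.66 and 1.43 CPM in WT, at 50.2, 70.9, 62.8 and 105 CPM in SKO and at 81.0, 147, 173 and 24.8 CPM in DKO. All KO livers were above all WT livers, and DKO replicate 4 was the lowest of them. The log2 fold change was 4.50 (SE 0.37, adjusted p = 8.10e-06) in SKO and 5.06 (SE 0.64, adjusted p = 0.00603) in DKO.

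Lepr, the leptin receptor gene, was at 10.7, 5.06, 7.74 and 5.61 CPM in WT, at 227, 224, 229 and 86.4 CPM in SKO and at 33.5, 103, 44.2 and 60.6 CPM in DKO, with log2 fold changes of 4.71 (SE 0.36, adjusted p = 5.23e-06) and 3.05 (SE 0.37, adjusted p = 0.00555). The FGF21 co-receptor gene Klb fell by 1.20 in SKO (adjusted p = 0.000469) and by 1.03 in DKO (adjusted p = 0.0318) on the log2 scale, and Fgfr4 by 0.85 (adjusted p = 0.00120) and 0.73 (adjusted p = 0.0141). Foxo1, which encodes a fasting-activated factor, was at -0.81 (adjusted p = 0.0541) in SKO and -0.69 (adjusted p = 0.212) in DKO.

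Cytokine signals can also lower the response to growth hormone, and 13 of 14 listed cytokine and acute phase genes were tested. In SKO, 4 fell and 0 rose, and in DKO 2 fell and 0 rose, beside 32.1% and 10.5% of all genes called in either direction. On the log2 scale the haptoglobin gene Hp was at -1.06 (adjusted p = 0.00102) and -0.72 (adjusted p = 0.0571), Il6ra, the receptor of interleukin 6, at -1.60 (adjusted p = 0.00310) and -1.72 (adjusted p = 0.0255), and Il1r1 at -1.30 (adjusted p = 0.0490) and -1.28 (adjusted p = 0.0291), each in SKO and then in DKO. Without SKO replicate 3, Il1r1 was at -2.14 in SKO (adjusted p = 8.85e-05). Crp was at -0.63 (adjusted p = 0.00323) in SKO and -0.024 (adjusted p = 0.960) in DKO. Tnfrsf1a was at 0.29 (adjusted p = 0.0948) and 0.36 (adjusted p = 0.114).

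Without the livers with Xist counts, 32.5% of all genes were called in SKO against WT and 35.9% in DKO against WT, against 32.1% and 10.5% over all livers, and the counts of the lists are to be read beside these shares. In SKO against WT, 1 gene of growth hormone signaling was higher and 4 were lower, 2 of the IGF list were higher and 2 lower, and 1 transcription factor gene was higher and 2 were lower. The added gene of the first list was Prlr, the prolactin receptor gene, at -1.43. In DKO against WT, 1 of the IGF list was higher and 1 lower, and 6 of the 16 transcription factor genes were lower. Of the fasting mediators, 3 were higher and 3 lower in each comparison, Trib3 (0.93 and 1.37) and Foxo1 (-1.01 and -0.96) being the added ones. Of the cytokine and acute phase genes, 4 were lower in SKO, and in DKO 4 were lower and 2, Tnfrsf1a and Nfkb1, were higher. Prlr, Trib3 and Nfkb1 are named after their values were seen. In none of the 7 lists did a gene pass the threshold in DKO against SKO by edgeR, over all livers or without these, and over all livers each of the 7 lists held 0 or 1 gene with an unadjusted p under 0.05.

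Over the 12 livers, the genes whose levels were most like Igf1 were Mtcp1 (r = 0.92), Gm40770 (0.91), Ift140 (0.91), Vmo1 (0.89) and Gm49338 (0.89), by Pearson's r of log2 CPM among 13071 genes with a mean of at least 1 CPM. Among the 10 genes, Igfals (0.79, rank 250) and Ghr (0.79, rank 254) were nearest to Igf1 and Igfbp2 was farthest (-0.69). Socs2 had an r of 0.0094 over all livers and of 0.76 around the genotype means, and WT replicates 1 and 2 were the lower pair of WT in both genes. These values describe 12 livers that share genotypes and library depth.

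The summed markers of some cell types differed between genotypes, and those of other cell types overlapped. The hepatocyte markers of the labelled tissue were present in all livers and summed over 8 genes to 80840 to 100552 CPM in WT, 46724 to 75197 CPM in SKO and 44922 to 98129 CPM in DKO, where the highest value is that of replicate 4. In SKO, 4 of the 8 were lower, beside 15.4% of all genes: Serpina1a at -1.52, Ttr at -0.89, Alb at -0.89 and Apob at -0.58 on the log2 scale. Without SKO replicate 3, 4 were lower as well, beside 32.5% of all genes called in either direction. The call of Apob was then lost (-0.59, adjusted p = 0.0588) and Tat passed (-1.56, adjusted p = 0.00538). In DKO, Serpina1a was lower over all livers (-1.04, adjusted p = 0.0315), beside 4.39% of all genes called lower. Without replicate 4 it was joined by Alb, Ttr, Apob and Tat, 5 of the 8, beside 35.9% of all genes. Cholangiocyte markers summed to 27.9 to 33.3 CPM in WT, 7.41 to 14.5 CPM in SKO and 9.60 to 31.3 CPM in DKO, and stellate cell markers to 179 to 207, 244 to 335 and 221 to 288 CPM. Within the stellate sum, Dcn alone had means of 116 CPM in WT, 178 CPM in SKO and 156 CPM in DKO. Des, Col1a1 and Col3a1 had lower means in SKO than in WT, and the remaining stellate markers higher ones. Of the 8 stellate markers, 1 passed in SKO against WT and 0 in DKO, beside 32.1% and 10.5% of all genes. Of the 9 macrophage markers, Cd68 was higher in SKO, at 24.2 to 54.7 CPM against 5.66 to 11.1 CPM in WT (log2 fold change 2.28, adjusted p = 0.000107), and 0 were lower. Over all genes, 16.7% were called higher and 15.4% lower. Without SKO replicate 3, 1 macrophage marker was higher and 1 was lower, beside 32.5% of all genes called. In DKO replicates 1 to 3, 7 or 8 of the 9 were below all WT livers (5 to 8 with library totals), and the share over all genes was not computed for single livers. Without replicate 4, 7 of them were lower and 1 was higher in DKO against WT, a median log2 fold change of -1.10, beside 35.9% of all genes called. Over all 4 DKO livers 1 was lower, beside 4.39% of all genes. Of the 5 erythroid markers tested, 2 were higher and 1 lower in SKO, and 4 higher and 1 lower without replicate 3, beside 32.1% and 32.5% of all genes called. The summed levels of macrophage, endothelial, lymphocyte and erythroid markers overlapped between genotypes over all livers, and the neutrophil sum was at most 1.66 CPM in any liver. The share of counts on ribosomal RNA genes was higher in each DKO liver (1.40 to 2.80%, with replicates 2 and 4 highest) than in any WT liver (0.452 to 1.36%), and SKO livers held 0.713 to 1.46%. In bulk tissue, fewer cells of a type and less RNA per cell cannot be told apart, and the part of these markers and of the ribosomal RNA share in the results above was not tested.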

How the data were processed

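Livers of 12 mice, 4 per genotype, were compared by RNA-seq. The count table holds whole, unscaled read counts for each Ensembl gene, as deposited by the authors. The submitters' processing notes name HISAT2 and GRCm38 (mm10), whereas the start sites in the count table differ from those of GRCm38, so positions are given as deposited and promoter windows under their own build. The counting program, its handling of strand and multimapped reads are not given in the sources used here. The authors' tables of differential expression (fold changes, p-values) and of FPKM were not used.

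Each pair of genotypes was tested with edgeR 4.0.16 in R 4.3.3 (TMM, filterByExpr, quasi-likelihood test, two-sided), with Benjamini-Hochberg adjustment over all genes tested and a threshold of 0.05. Alternatives were DESeq2 1.42.0, RLE scaling, no filter, a filter of 1 CPM in 4 livers, 1 fit over 12 livers, a replicate block, Xist as a covariate, leaving out each liver, and only livers with Y-linked counts. The counts of lists without the Xist-expressing livers, the overlap of groups with library totals in place of TMM and the order of WT levels without WT replicate 3 were added after the data were seen. The test was checked on simulated counts. A gene without counts in a liver has an upper limit of 3 counts, 0.150 to 0.204 CPM, which covers counting error only. The labels tie each library to a mouse genotype but to no litter or batch, so p-values measure the spread between these livers. None of the 66 pairs of libraries agreed within sampling noise (smallest chi-square per degree of freedom 18.5).

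The 10 genes and the lists of related genes were chosen with earlier results of these data known. All 10 are named, and from each other list the 5 genes of smallest p in SKO against WT, and the 5 genes most like Igf1, except for some genes that are not reported here. Cell type markers were summed as CPM.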

Additional observations from a re-analysis of the deposited data

Results flagged for a closer look

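In 30 groups of 4 livers (10 genes in 3 genotypes), 3 held a value whose gap to the nearest liver, as a share of the group's range, was over Dixon's critical value for 4 values, beside 1.5 that chance would give. Ghr was at 434 CPM in DKO replicate 4 and at 152 to 160 CPM in the other DKO livers. Igfals was at 102 CPM in the same liver and at 28.3 to 37.0 CPM in the other DKO livers. Bcl6 was at 60.4 CPM in WT replicate 3 and at 13.5 to 14.9 CPM in the other WT livers. DKO replicate 4 is a liver with Xist counts, and its part in the values of the DKO group is given by the fits without it.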

How the results depend on the processing

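In SKO against WT the calls of Ghr, Igf1 and Igfals held in each alternative fitted (for this comparison, the livers with Y-linked counts are the fit without SKO replicate 3), with log2 fold changes of -1.47 to -1.22, -0.68 to -0.51 and -1.51 to -1.16 when 1 liver was left out. The number of the 10 genes called was 3 to 5 over these fits, and Onecut1 had an adjusted p of 0.0890 by DESeq2, 0.0523 in 1 fit over 12 livers and 0.0657 with the replicate block. Correlations of the deviations of same-numbered livers were -0.077 to 0.079 between SKO and WT, -0.16 to 0.11 between DKO and WT and -0.39 to 0.10 between DKO and SKO, with 0, 1 and 1 of 4 over 0.1. These values gave no sign of pairing by number, and 4 pairs per comparison are too few to exclude it. With the replicate block 691 genes and 0 of the 10 were called in DKO against WT and 0 genes in DKO against SKO. In DKO against WT, 2509 genes were called by DESeq2, 5253 over the livers with Y-linked counts, 5168 with Xist as a covariate and 244 to 5253 when 1 liver was left out, the highest without DKO replicate 4, which is the fit over the livers with Y-linked counts. Of the 10 genes, 3 were called over the livers with Y-linked counts, 3 with Xist as a covariate and 0 to 3 when 1 liver was left out. In DKO against SKO, 91 genes were called by DESeq2, 35 without a filter, 21 over livers with Y-linked counts, 9 with Xist as a covariate and 0 to 15 when 1 liver was left out.

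The log2 fold changes that turned direction all belonged to genes that had not passed. In SKO against WT, Bcl6 was 0.18 with the replicate block and -0.36 to 0.71 when 1 liver was left out, and Cish was -0.30 to 0.19. In DKO against WT, Bcl6 was -0.021 by DESeq2, -0.011 with RLE scaling, -0.0054 in 1 fit over 12 livers and -0.21 to 0.85 when 1 liver was left out, and Cish was 0.20 over livers with Y-linked counts, 0.21 with Xist as a covariate and -0.39 to 0.22 when 1 liver was left out. In DKO against SKO, Cish was -0.010 by DESeq2, -0.016 without a filter, -0.21 with the replicate block, -0.12 with Xist as a covariate and -0.30 to 0.30 when 1 liver was left out, and Socs2 was -0.0025 without a filter, -0.048 over livers with Y-linked counts and -0.12 to 0.23 when 1 liver was left out. Ghr and Igfals were -0.091 and -0.13 over livers with Y-linked counts and -0.038 to 0.68 and -0.036 to 0.85 when 1 liver was left out, Stat5b was -0.15 to 0.062 and Onecut1 -0.67 to 0.15. The cause of these shifts was not tested. With library totals in place of TMM, the mean of Ghr in WT was 368 CPM (the TMM factors of WT livers were 0.896 to 0.981, those of SKO livers 1.01 to 1.05, and DKO livers had 0.970 to 1.16). Low counts (26 at the least for Onecut1) limit the precision of that gene, and 4 livers a group limit all tests.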
